A study of Mus musculus with 11 samples.

Results

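The library of HIV integration sites made with INTS3 was set against the libraries made with NABP1 and NABP2. They are 3 of the 11 libraries of the series and hold 372954 of its 831994 distinct sites (44.8%): 96318 for INTS3, 188432 for NABP1 and 88204 for NABP2. A site is a distinct combination of chromosome, position and strand on mm9, and the 3 libraries were chosen by their labels alone. All came from C57BL/6 mouse embryonic fibroblasts (MEF) of genotype LEDGF-/-, which do not make LEDGF, the host factor that usually holds HIV integrase on active genes. A plasmid for the named protein, fused to the integrase-binding domain of LEDGF (LEDGF-IBD), was electroporated, HIV was added 24 h later and the cells grew for 3 more days. Junctions between viral and genomic DNA were then read from genomic DNA after linker-mediated PCR, and they serve as a map of where the fused protein could bring the integrase. How many cells took up the plasmid is not given, and sites in cells without a fused protein were not analysed here.

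INTS3 is the scaffold of the SOSS complexes, which bind single-stranded DNA and are known from the response to DNA breaks. NABP1 and NABP2 are the single-strand-binding subunits, of which a SOSS complex holds one or the other. INTS3 is also a subunit of Integrator, the complex that cleaves small nuclear RNAs and other nascent transcripts of RNA polymerase II, and it joins SOSS to Integrator. The comparison asks where the sites of the scaffold lie beside those of the proteins it carries. INTS9, a subunit of the cleavage module of Integrator, is given beside them where a second Integrator subunit helps to place a value.

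Each protein had 1 library, so no test between the proteins was possible: 1 library against 2 could not give a permutation p below 0.333. All intervals below cover counting error at 95% and say nothing of the spread between cultures. The read names show the flow cell of each site, and these repeat runs are given as the only spread within a protein. INTS3 came from 1 flow cell, which it shared with the smaller run of NABP2 (15333 sites) and with no run of NABP1. The larger run of NABP2 (72909 sites) shared another flow cell with the larger run of NABP1 (105793 sites), and the smaller run of NABP1 (82857 sites) had a flow cell of its own among these 3 libraries. INTS3 against NABP1 and flow cell can therefore not be told apart. Between 0.225% and 0.332% of the smaller run's sites were at exactly the position of a site of another run, with 218 such sites between the runs of NABP1 and 226 between INTS3 and the smaller run of NABP1. Unless runs are named, the libraries were thinned at random to 88204 sites each.

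The bases at the junctions were read first, as a check of the recorded positions. On the plus strand 45.0% of INTS3 sites had G at the recorded base and 44.3% had T at the next, and 43.2% had A and 43.2% had C at offsets 3 and 4. On the minus strand the same bases stood 1 base further along (G at 45.6% and T at 43.9%), so the recorded minus-strand base lies 1 base before the one that matches the plus strand. This pattern was read as GTNAC, which is its own reverse complement and was chosen after the bases had been seen. With the minus strand moved by 1 base, GTNAC stood at 3.47% of INTS3 sites (3.36 to 3.60), 3.18% of NABP1 sites (3.07 to 3.30) and 2.96% of NABP2 sites (2.85 to 3.08), against 0.266% of all genome positions. An offset of 1 base does not bear on the distances of 200 bases and more used below. The share of G and C within 50 bases was 44.1% for INTS3, 44.7% for NABP1 and 44.6% for NABP2, against 41.8% over the genome.

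Sites of INTS3 lay less often inside genes than those of either NABP protein. Of INTS3 sites 56.9% fell inside a protein-coding gene (56.5 to 57.2), of NABP1 sites 61.1% (60.8 to 61.4) and of NABP2 sites 65.8% (65.5 to 66.1), while such genes cover 37.7% of the genome. INTS9 had 54.3%. Run by run, INTS3 stood below all 4 NABP runs, which held 59.6% and 62.5% for NABP1 and 62.7% and 66.5% for NABP2. The ratio of INTS3 to NABP1 was 0.931 (0.920 to 0.943) and to NABP2 0.864 (0.854 to 0.875). On the shared flow cell, inside genes, INTS3 stood at 0.907 of NABP2 (0.888 to 0.927).

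Most of this difference lay in gene bodies and in the stretch beyond the start. Gene bodies, taken as the inside of genes farther than 5 kb from their starts and ends, held 34.6% of INTS3 sites, 37.1% of NABP1 sites and 41.3% of NABP2 sites, against 31.0% of the genome. INTS3 was again below all 4 NABP runs (36.4% to 41.4%), and on the shared flow cell its share was 0.857 of that of NABP2 (0.834 to 0.880). From 1 to 5 kb downstream of a start the shares were 13.96% for INTS3, 14.9% for NABP1 and 17.5% for NABP2. Here the smaller run of NABP1 came close to INTS3, with 14.4% against 13.97% over all INTS3 sites, and the ratio to that run was 0.975 (0.9502 to 1.0002). INTS9 had 9.20% there, lower than all of them, but 37.0% in gene bodies, close to NABP1 and above INTS3.

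The first kilobase around starts did not follow that order. Within 1 kb of a start lay 7.30% of INTS3 sites (7.13 to 7.47), between 8.40% of NABP1 sites (8.21 to 8.58) and 6.10% of NABP2 sites (5.95 to 6.26). Both runs of NABP1 were above INTS3 (8.003% and 8.91%) and both of NABP2 below (5.39% and 6.26%). INTS3 held 1.20 times the share of NABP2 (1.15 to 1.24), and 1.35 times on the shared flow cell (1.25 to 1.45). Over the wider window of 5 kb on each side of a start the 3 libraries nearly met, at 27.3%, 28.1% and 28.2%. In that window the ratio to NABP2 was 0.966 at equal size but 1.07 on the shared flow cell, so its direction turned with the run used.

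Gene ends and the space between genes held more of the INTS3 sites. Within 5 kb of a gene's end lay 15.9% of INTS3 sites (15.7 to 16.2), 15.0% of NABP1 sites (14.8 to 15.2) and 14.2% of NABP2 sites (14.0 to 14.5), and INTS3 stood above all 4 NABP runs (14.2% to 15.4%). The ratio was 1.06 to NABP1 (1.04 to 1.09) and 1.12 to NABP2 (1.09 to 1.15), and 1.11 to NABP2 on the shared flow cell (1.07 to 1.17). Within 1 kb of an end the libraries were close, with 3.68%, 3.53% and 3.52%, and the ratio to NABP1 had an interval that includes 1 (0.993 to 1.10). Farther than 5 kb from any protein-coding gene lay 31.1% of INTS3 sites, 28.3% of NABP1 sites and 24.4% of NABP2 sites, against 56.6% of the genome, and INTS3 was above all 4 NABP runs there too (23.8% to 29.6%). INTS9 went further in the same direction far from genes, with 35.6%. Within 5 kb of an end it held 12.8%, below INTS3, NABP1 and NABP2.

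**Figure D1:**
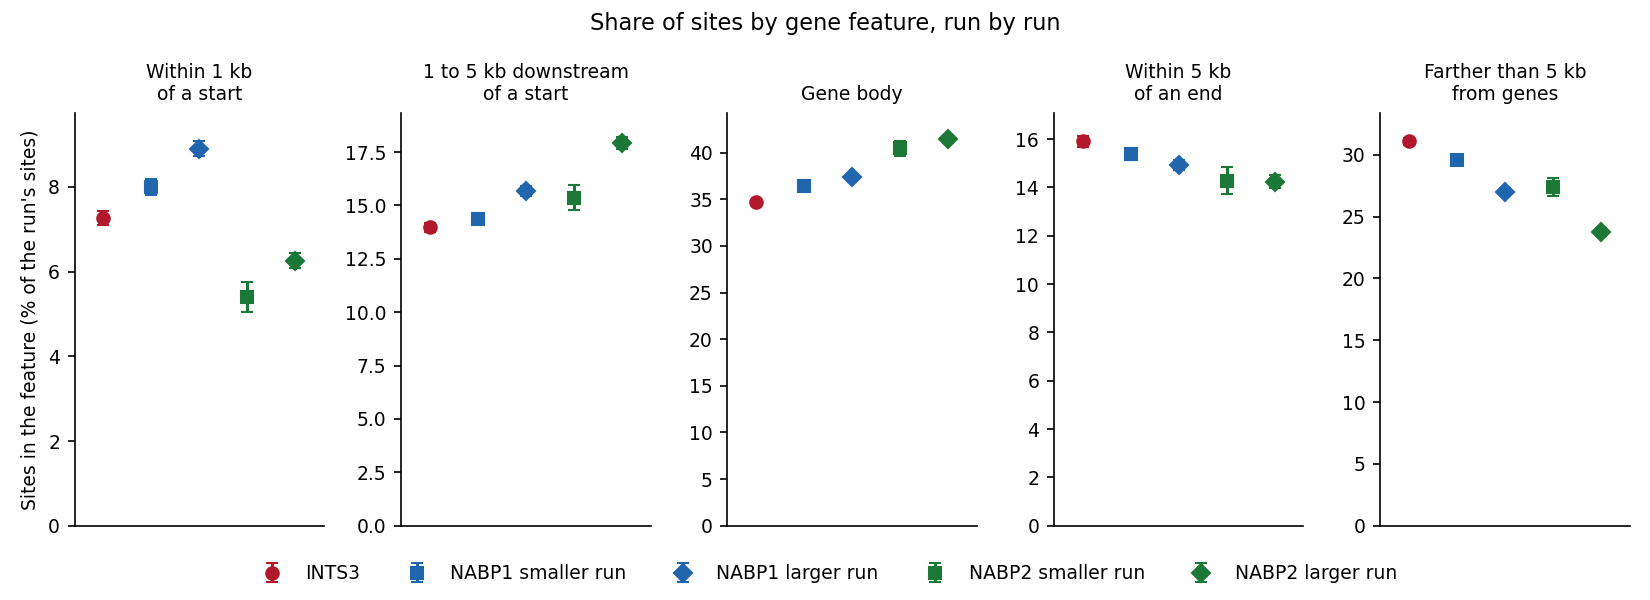
Share of each run's sites in 5 gene features (y axis, % of the run's sites), for INTS3 (circle), the smaller (squares) and larger (diamonds) runs of NABP1 and NABP2, with 95% exact binomial intervals as bars. INTS3 is the lowest point downstream of starts and in gene bodies, the highest near ends and far from genes, and lies between NABP1 and NABP2 within 1 kb of a start.

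In the profile around starts NABP2 had its highest point farther out than INTS3 and NABP1. In bins of 200 bases, counted at the nearest start, INTS3 was densest at 800 to 1000 bases downstream with 6.47 times uniform density (6.06 to 6.90). NABP1 reached 7.01 times (6.58 to 7.46) at 600 to 800 bases, and NABP2 reached 6.50 times (6.09 to 6.94) farther out, at 1400 to 1600 bases. The top of NABP2 was broad, with 5.93 times (5.54 to 6.35) at 800 to 1000 bases, so its highest bin is not sharply placed. Both runs of NABP1 and both runs of NABP2 had their highest bin at the same place as their library. The highest bins of INTS3 and NABP1 are neighbours, and their places were not apart beyond counting error: NABP1 had 6.94 times at 800 to 1000 bases (6.51 to 7.39) and INTS3 6.19 times at 600 to 800 (5.79 to 6.62). At 1400 to 1600 bases INTS3 had 5.54 times (5.15 to 5.94), below NABP2. On the upstream side INTS3 was the densest of the 3 in every bin from 3800 to 600 bases before the start, with 5.40 times uniform density at 800 to 600 bases, where NABP1 had 4.87 and NABP2 3.83.

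INTS3 sites were also the most even of the 3 libraries on both sides of the start. Of INTS3 sites within 5 kb of their nearest start 60.6% lay downstream, against 66.0% for NABP1 and 69.3% for NABP2. The 4 NABP runs held 64.5% to 69.7%, all above INTS3, and INTS9 held 59.96%. In the kilobase upstream of a start lay 3.70% of all INTS3 sites, close to the 3.90% of NABP1 and above the 2.88% of NABP2. In the kilobase downstream INTS3 held 4.16%, below the 5.19% of NABP1 and above the 3.70% of NABP2.

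**Figure D2:**
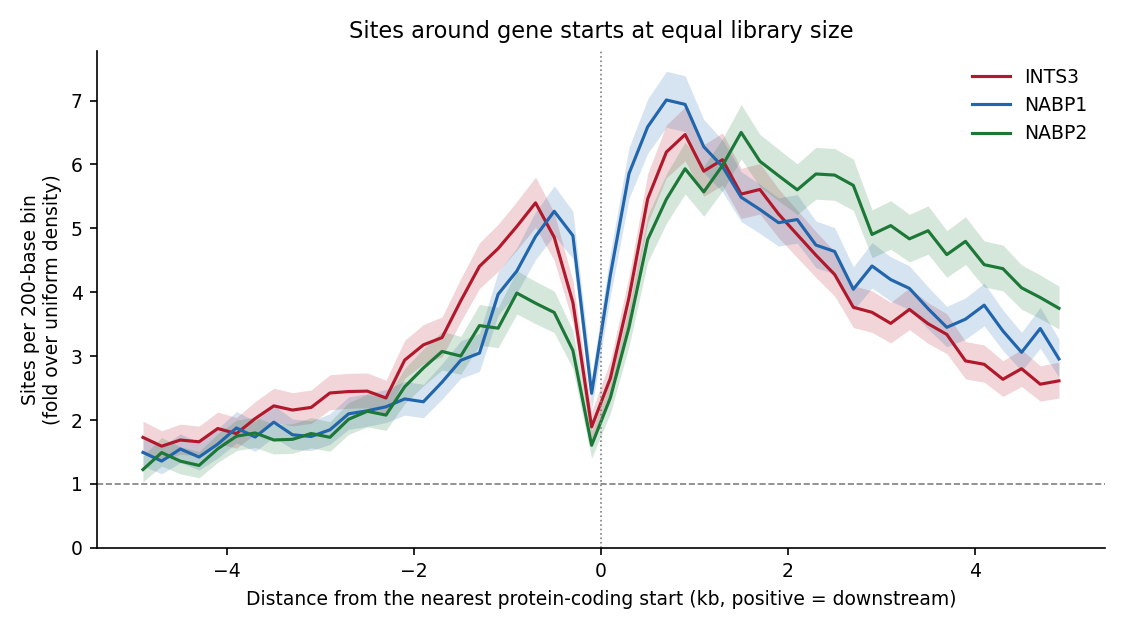
Sites per bin of 200 bases (y axis, fold over uniform density) against distance from the nearest protein-coding start (x axis, kb, positive downstream) for INTS3, NABP1 and NABP2 at 88204 sites each, with bands for 95% exact Poisson intervals. NABP2 peaks farther out than INTS3 and NABP1, whose highest bins adjoin, and INTS3 is the highest line from 3800 to 600 bases upstream.

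Along genes of at least 20 kb, INTS3 sites were spread more evenly than those of the NABP proteins. The first 10% of the length of such genes held 19.99% of the INTS3 sites in them (19.6 to 20.4), 22.8% for NABP1 (22.4 to 23.2) and 24.2% for NABP2 (23.8 to 24.6). The last 10% held 7.87% for INTS3 (7.61 to 8.14), 6.98% for NABP1 (6.75 to 7.22) and 5.49% for NABP2 (5.29 to 5.70). The runs kept this place for INTS3: over all its sites the first 10% held 20.2%, against 21.3% to 24.6% in the 4 NABP runs, and the last 10% held 7.84%, against 5.38% to 7.37%. INTS9 was flatter still, with 18.01% at the start and 8.42% at the end.

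**Figure D3:**
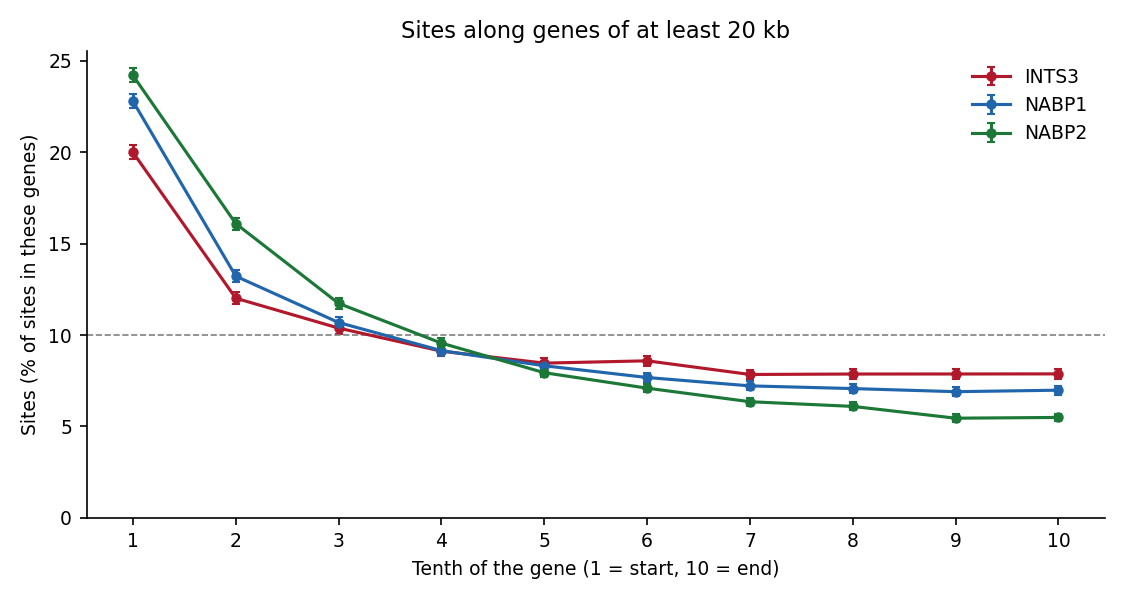
Share of sites in each 10% of the length of protein-coding genes of at least 20 kb (y axis, % of the library's sites in these genes, x axis, steps from start to end) with 95% exact binomial intervals, and a dashed line at an even 10%. INTS3 has the lowest first step (19.99%) and the highest last step (7.87%) of the 3 libraries.

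Gene length gave a similar order in the middle classes. Genes of 30 to 100 kb held 18.4% of INTS3 sites, 21.1% of NABP1 sites and 24.2% of NABP2 sites, and the 4 NABP runs (20.3% to 24.6%) were all above INTS3. For genes of 300 kb or more the shares were 7.51%, 7.23% and 7.15%, and for genes under 10 kb 5.40%, 5.29% and 5.09%, and over all its sites INTS3 (7.53% and 5.39%) stood just above the highest NABP run (7.47% and 5.37%).

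For single genes, counted with 5 kb on each side, 2007 genes that are not pseudogenes had a mean of at least 10 sites in the 3 libraries. A gene was called where INTS3 held at least 2 times, or at most 0.5 times, the sites of both NABP1 and NABP2. INTS3 was higher at 18 genes (0.897% of those tested) and lower at 169 (8.42%). The lower genes lay at 156 separate places, and 159 of them were protein-coding. The same rule with NABP1 as the single library gave 9 genes higher (0.448%) and 52 lower (2.59%), and with NABP2 80 higher (3.99%) and 35 lower (1.74%). Of the 3 libraries INTS3 had the most genes below both others, and NABP2 the most above.

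The median of the tested genes also leaned towards lower INTS3, but it comes from the same filtered genes and is no separate support. The size of the lean varied with the minimum number of sites. At a mean of at least 20 sites the medians were 0.852 against NABP1 and 0.682 against NABP2. That minimum is set on the mean of INTS3, NABP1 and NABP2. A gene high in both NABP libraries therefore passes it more easily than a gene high in INTS3 alone. The median fold over the 2007 genes was 0.917 against NABP1 and 0.818 against NABP2, which is -0.13 and -0.29 on the log2 scale; INTS3 also had the smallest share of its sites inside genes. With no minimum, over 24068 genes that mostly hold few sites, both medians were 1, with 4175 genes higher and 2951 lower. These values cannot show whether the lean turned, because 0.5 is added to both sides of a fold with an empty count. A gene with a single INTS3 site and no NABP site is then called higher. A gene with a single NABP site and no INTS3 site cannot be called lower. With each fold divided by its median, an alternative chosen after seeing the data, 34 genes were higher and 97 lower. The share of calls that were higher then rose from 9.63% to 25.95%. Against NABP1 alone INTS3 was at least 2-fold higher at 111 genes (5.53%) and at most 0.5-fold at 214 (10.7%). Against NABP2 alone the counts were 89 (4.43%) and 411 (20.5%). NABP1 against NABP2 gave 65 (3.24%) and 210 (10.5%).

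The runs show how far single genes can be read. With runs thinned to 72909 sites and genes tested at a mean of at least 10 sites over the pair, 15.6% of 1438 genes were 2-fold apart in one direction or the other between the smaller and larger runs of NABP1. INTS3 against these runs gave 13.4% of 1328 genes and 18.1% of 1381 genes. At the level of single genes INTS3 therefore differed from the NABP1 runs at about as many genes as these differed from each other. Against the larger run of NABP2 the share was 26.4% of 1535 genes, of which 22.3 percentage points were lower in INTS3. The smaller run of NABP1 against that NABP2 run, also from different flow cells, gave 21.6% of 1544 genes, of which 17.2 percentage points were lower in NABP1. The larger runs of NABP1 and NABP2, from 1 flow cell, gave 12.9% of 1641 genes. On the flow cell that INTS3 shared with NABP2, at 15333 sites each, only 24 genes could be tested, with 1 higher, 12 lower and a median fold of 0.471. At this depth a gene high in the NABP2 run alone could pass the minimum, as Malat1 did with 27 sites there. These counts and the median are therefore no support for a lean.

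**Figure D4:**
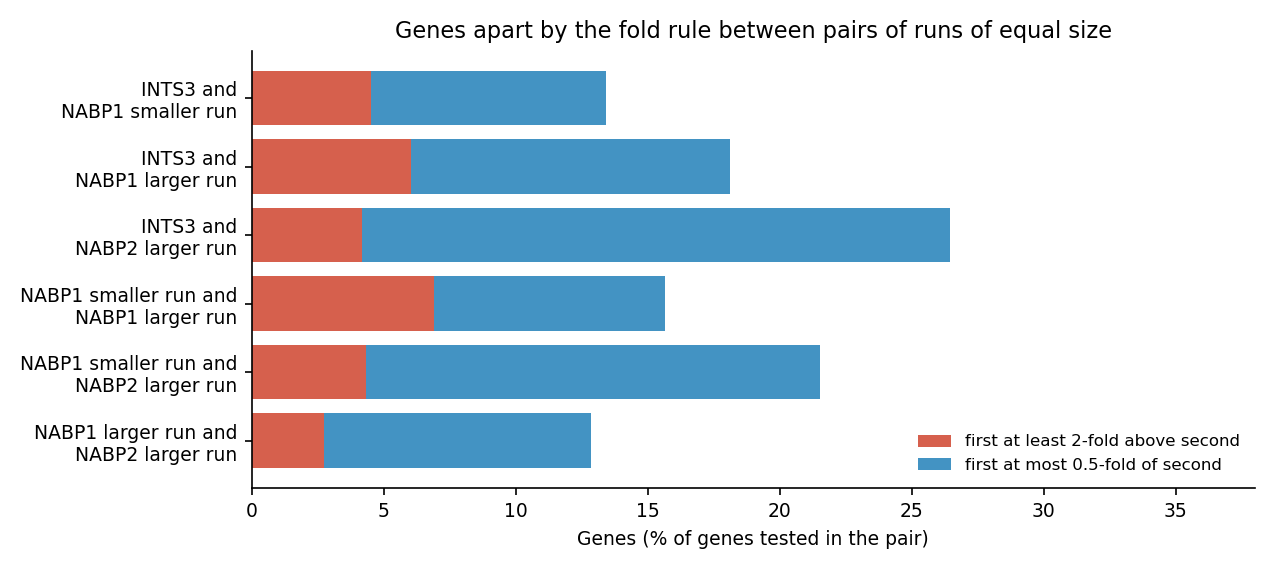
Genes at least 2-fold apart between pairs of runs thinned to 72909 sites (x axis, % of the genes tested in the pair), split into those where the run named first was higher (red) and lower (blue). The NABP1 runs differ from each other at 15.6% of genes, between the 13.4% and 18.1% of INTS3 against them. Against the larger NABP2 run INTS3 reaches 26.4%, the smaller NABP1 run 21.6% and the larger NABP1 run 12.9%.

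Which genes were called also depended on which sites the thinning kept. Over 10 thinnings 33 of the lower genes were called every time, and 386 at least once. Of the higher genes 1 was called every time, and 54 at least once. INTS3 was below all 4 NABP runs at 484 tested genes (24.1%) and above all 4 at 277 (13.8%). Of the 169 genes called lower, 143 were below all 4 runs and 73 had both counting intervals short of 1. Of the 18 called higher, 17 were above all 4 runs and 4 had both intervals beyond 1. These counts describe values that the rule itself used, since the runs make up the libraries, and they are no support for the calls.

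Of the genes lower in INTS3 94.1% were protein-coding, close to the 91.5% of all tested genes, and their median length was 52.04 kb beside 61.8 kb. Rtn4, whose product shapes the endoplasmic reticulum (chr11:29592947-29644331), held 1 INTS3 site, 18 NABP1 sites and 18 NABP2 sites. Per 100000 sites of each run INTS3 had 1.04, the NABP1 runs 19.3 and 25.5 and the NABP2 runs 19.6 and 20.6. The fold was 0.0556 against either library (0.00133 to 0.352), and Rtn4 was called in 10 of 10 thinnings. INTS9 held 12 sites there. Khdrbs1, which encodes an RNA-binding regulator of splicing (chr4:129380408-129419547), held 3, 17 and 21 sites, and INTS3 with 3.11 per 100000 was below all 4 NABP runs (13.04 to 26.1).

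Other genes of this group called in every thinning were Maea, a subunit of a ubiquitin ligase, with 3, 17 and 23 sites for INTS3, NABP1 and NABP2. Vgll4, a cofactor of TEAD transcription factors, held 4, 25 and 20. Akirin2, a nuclear protein, held 6, 26 and 27. Zzef1 held 4, 18 and 17. All 4 lay below every NABP run in INTS3. Celf1, another RNA-binding protein of splicing, held 6, 27 and 36 sites and was called in 9 of 10 thinnings, and Rhbdd3 held 4, 14 and 17 and was called in 9, although the smaller NABP2 run (6.52 per 100000) was below INTS3 there (7.27). The late endosome GTPase gene Rab7 (2, 14 and 18, 8 thinnings), the chromatin gene Epc1 (1, 16 and 16, 6 thinnings), the cell cycle gene Cks2 (4, 13 and 15, 4 thinnings) and the ephrin gene Efnb2 (2, 12 and 17, 3 thinnings) recurred less often. Efnb2 and Cks2 were not called when all sites were used, because their mean at equal size was then under the minimum of 10. Against NABP1 and NABP2 their folds from all sites were 0.170 and 0.108 for Efnb2, and 0.356 and 0.244 for Cks2. Over the other thinnings the fold against the nearer library was 0.0909 to 0.286 for Efnb2 and 0.2 to 0.667 for Cks2.

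The place of the sites within these genes was compared next. At the 159 protein-coding genes called lower, 60.9% of the INTS3 sites, 60.8% of the NABP1 sites and 67.7% of the NABP2 sites lay in the gene body. The first 5 kb of these genes held 19.7%, 23.1% and 20.4%, and the 5 kb upstream 10.8%, 8.44% and 6.14%. Over all 1836 tested protein-coding genes the upstream 5 kb held 13.6%, 11.1% and 9.33%. INTS9, which no part of the rule used, had a median of 9.07 sites per 100000 at the lower genes and 10.2 over all tested genes. By the rule itself INTS3 was low at the lower genes, with 6.80 against 14.7 over all. NABP1 was raised there (19.3 against 15.9), as was NABP2 (22.7 against 18.1), which the rule also favours.

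Among the genes higher in INTS3, Pappa2, which encodes a protease of insulin-like growth factor binding proteins (chr1:160641862-160887870), was the one called in all 10 thinnings. It held 18 INTS3 sites, 8 NABP1 sites and 8 NABP2 sites, and its fold of 2.25 had an interval that includes 1 (0.931 to 5.98). Per 100000 sites the smaller run of NABP2 came near INTS3 there, with 19.6 against 21.8. Cpsf3l, the gene of the Integrator endonuclease INTS11 (chr4:155243655-155263212), held 19, 7 and 6 sites. The NABP1 runs were far apart there: the smaller run of NABP1 had 19.3 per 100000 beside 20.8 for INTS3, the other NABP runs had 6.52 to 6.86, and the gene was called in 3 of 10 thinnings.

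Fibp, whose product binds a fibroblast growth factor inside cells (chr19:5460637-5465051), held 26, 11 and 9 sites, and INTS3 with 29.1 per 100000 was above all 4 NABP runs (6.52 to 15.1). Its window overlaps that of Fosl1, an immediate early gene of the AP-1 family, which held 43, 29 and 30 sites and was not called. Rpl23a, a ribosomal protein gene, held 25, 9 and 10 sites, and 4930578M01Rik, a long noncoding RNA, 23, 9 and 9. Fibp, Rpl23a, 4930578M01Rik and Cpsf3l are the 4 with both intervals beyond 1, and they were called in 6, 5, 6 and 3 thinnings. From all sites Cpsf3l, Rpl23a and Fibp were not called, and the fold of Cpsf3l against NABP1 was then 1.70 (0.886 to 3.24). With 1 kb in place of 5 kb on each side, Rpl23a turned to 0.667 against the nearer library (0.138 to 2.81).

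The other named genes of this group had 17 to 22 INTS3 sites and 6 to 10 in each NABP library. They were Cpne8, F630110N24Rik, Shroom3 (an actin-binding protein), Plekha5, Slit2 (the ligand of Robo receptors), Pecr and Arl4d, and were called in 2 to 9 thinnings. Cpne8, Slit2 and Pecr were not called from all sites.

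**Figure D5:**
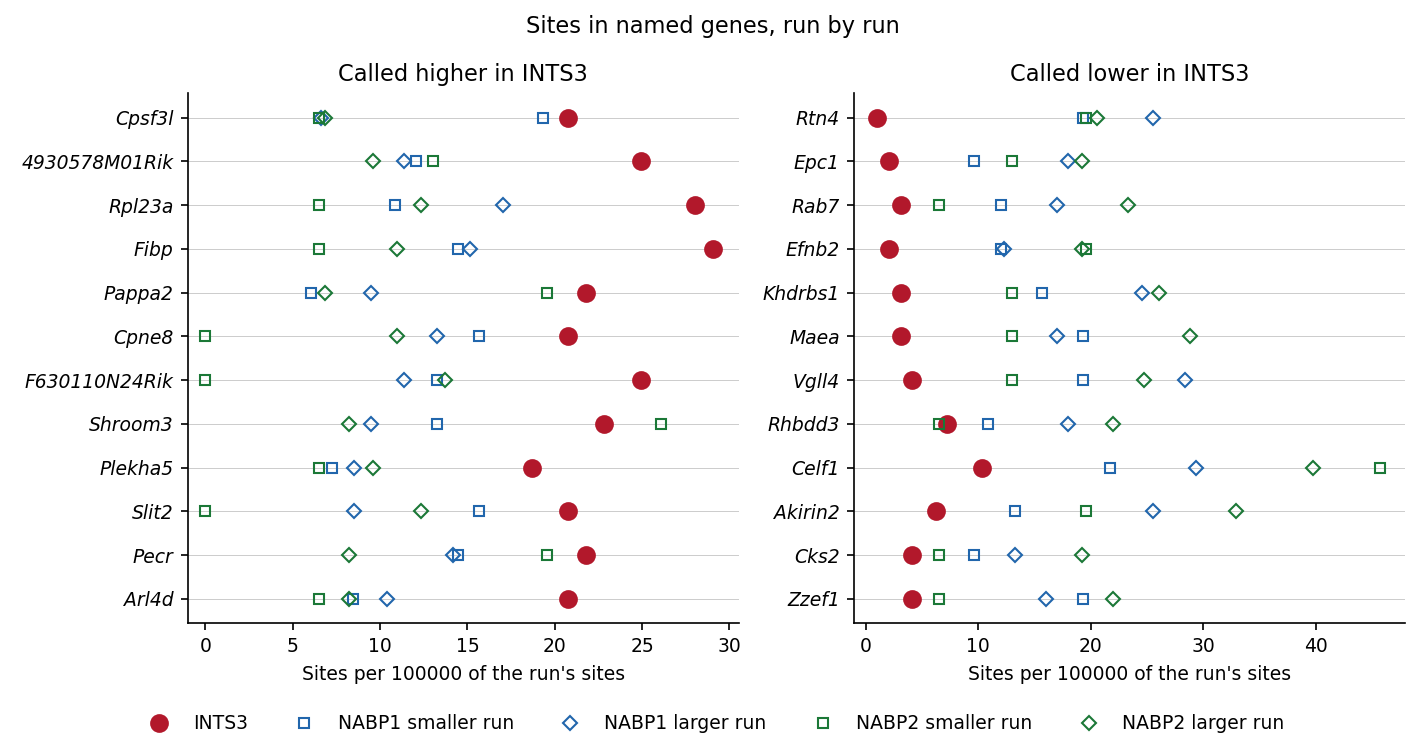
Sites per 100000 of each run's sites (x axis) in the 12 genes with the largest fold in each direction against the nearer NABP library, for INTS3 (filled circles), NABP1 (blue) and NABP2 (green), smaller runs as squares and larger runs as diamonds. INTS3 is left of every NABP run at 11 of the 12 lower genes, and at Cpsf3l, Pappa2, Shroom3 and Pecr a NABP run lies near or beyond INTS3.

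The genes with the most INTS3 sites were mostly called in neither direction. Gm20388, a gene model of 4435 kb on chromosome 8 in this annotation, had 562 INTS3, 515 NABP1 and 590 NABP2 sites. Fgfr2, a growth factor receptor gene annotated over 3009 kb, had 102, 123 and 111. Tex14 had 102, 103 and 153, and Gm16736 (67, 56 and 65) and Gm17480 (60, 46 and 56) are long noncoding RNA models. Mll2, a histone methyltransferase gene (chr15:98662100-98701614), stood out among these 6 with 81, 50 and 47 sites. Its folds were 1.62 against NABP1 (1.12 to 2.35) and 1.72 against NABP2 (1.19 to 2.52), under the 2-fold rule. INTS3 had 88.2 per 100000 there and the NABP runs 74.8, 35.9, 39.1 and 56.2, so it was above all of them.

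The following stretches of 300 bases of mm9, plus strand, show single sites in the reference sequence. Each was taken as the densest stretch of its gene's window for the side that was high, so its counts are a description. Capitals mark the recorded junction bases of INTS3 at Fibp and Mll2, and of NABP1 and NABP2 at Khdrbs1. Over all sites the stretch of Fibp held 5 INTS3 sites and 0 of either NABP protein, and that of Mll2 held 4 and 0. The stretch of Khdrbs1 held 0 INTS3 sites, 5 NABP1 sites and 1 NABP2 site. The stretch of Fibp lies between Fosl1 and Fibp in no annotated gene, that of Mll2 in a coding exon of Mll2 (minus strand) and that of Khdrbs1 in an intron of Khdrbs1 (minus strand).
Fibp, chr19:5459136-5459435: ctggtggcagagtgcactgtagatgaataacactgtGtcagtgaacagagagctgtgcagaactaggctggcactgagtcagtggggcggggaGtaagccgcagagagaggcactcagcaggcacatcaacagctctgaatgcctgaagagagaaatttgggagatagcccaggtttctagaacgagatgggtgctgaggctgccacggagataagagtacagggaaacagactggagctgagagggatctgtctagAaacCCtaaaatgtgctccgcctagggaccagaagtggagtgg
Mll2, chr15:98679939-98680238: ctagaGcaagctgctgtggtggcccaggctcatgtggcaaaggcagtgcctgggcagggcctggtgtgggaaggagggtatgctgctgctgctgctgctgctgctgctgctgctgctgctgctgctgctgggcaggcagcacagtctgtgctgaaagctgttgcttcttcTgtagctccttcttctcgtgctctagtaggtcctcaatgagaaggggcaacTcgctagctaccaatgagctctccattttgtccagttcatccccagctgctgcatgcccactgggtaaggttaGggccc
Khdrbs1, chr4:129409601-129409900: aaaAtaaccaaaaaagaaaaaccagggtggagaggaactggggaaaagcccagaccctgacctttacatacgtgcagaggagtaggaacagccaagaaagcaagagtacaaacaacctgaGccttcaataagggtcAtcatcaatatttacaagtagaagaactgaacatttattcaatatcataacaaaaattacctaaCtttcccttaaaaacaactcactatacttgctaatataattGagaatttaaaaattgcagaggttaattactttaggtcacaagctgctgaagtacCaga

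Sites were made distinct by position and strand, so their separate bases in these stretches follow from that definition. Some INTS3 sites at Fibp lie within a few bases of each other.

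Histone genes were dense in all 3 libraries with INTS3 inside the range of the NABP runs. The 68 replication-dependent histone genes supply the histones of new chromatin during DNA replication and form 18 separate windows. They held 266 INTS3, 245 NABP1 and 312 NABP2 sites, which is 20.1 times uniform density (17.8 to 22.7), 18.5 times (16.3 to 20.99) and 23.6 times (21.04 to 26.4). The ratio of INTS3 was 1.09 to NABP1 (0.909 to 1.30) and 0.853 to NABP2 (0.721 to 1.01). With the smaller NABP1 run alone the ratio to NABP1 was 1.23 (1.01 to 1.48), and with the larger 1.04 (0.875 to 1.24). The runs spanned 16.4 to 24.2 times, with INTS3 inside them at 20.1, and INTS9 held 8.01 times. Of the 35 histone genes with enough sites, 0 were called higher and 2 lower (Hist1h2be and Hist1h4d), beside 0.897% and 8.42% of all tested genes. The windows of these 2 overlap, as do those of many histone genes, so their counts share sites. Their median folds were 1.14 and 0.913, beside 0.917 and 0.818 over all tested genes.

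By cluster, which was looked at after the values were seen, the histone genes of chromosome 3 differed most between the libraries. They held 82 INTS3 sites (40.9 times, 32.6 to 50.8), 55 NABP1 sites (27.5 times, 20.7 to 35.8) and 86 NABP2 sites (42.9 times, 34.4 to 53.04). Both runs of NABP1 had 27.1 times, and the runs of NABP2 54.6 and 40.5 times. Hist2h3c1 of this cluster held 27, 17 and 27 sites. The main group on chromosome 13 held 15.4 times for INTS3, 15.7 for NABP1 and 21.5 for NABP2. In sum INTS3 thus stood with NABP2 on chromosome 3 and with NABP1 in this main group. The second group on chromosome 13 held 18.3, 18.1 and 20.5 times, with intervals that overlap. The order varied within the main group, where Hist1h3a held 21, 13 and 23 sites and Hist1h2ad 11, 16 and 22.

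Spliceosomal small nuclear RNAs (snRNAs) include both transcripts of RNA polymerase II, which Integrator cleaves, such as U1, U2, U4 and U5, and transcripts of RNA polymerase III, which it is not known to cleave, such as U6 and U6atac. Of the 1422 annotated copies 935 are named U6 and 28 U6atac, and 736 had no site in any of the 3 libraries, so the values of the whole list mix both kinds and many copies without a site. The list held 1110 INTS3 sites (2.34 times uniform density), 1069 NABP1 sites (2.26 times) and 1298 NABP2 sites (2.74 times). The 116 genes named U7, which is not a spliceosomal snRNA, are counted in this list. They lay near uniform density, at 1.08, 1.02 and 0.996 times. INTS3 was at 1.04 of NABP1 (0.954 to 1.13) and 0.855 of NABP2 (0.789 to 0.927). The difference from NABP2 varied with the run: on the flow cell they shared INTS3 was at 0.578 (0.512 to 0.655), and against the larger run of NABP2 at 0.942 (0.860 to 1.03). Of 35 copies with enough sites 0 were called higher and 4 lower (2 named U1, 1 U5 and 1 U6). The windows of the 2 named U1 overlap. Of all tested genes 0.897% were called higher and 8.42% lower, so neither count stands out from the background.

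The smaller run of NABP2 was the highest of the INTS3 and NABP runs at several of these names. Around the 10 genes named U5 it had 83.5 times uniform density (60.9 to 112), INTS3 had 25.4 (20.3 to 31.4), the NABP1 runs 37.1 and 22.9 and the larger NABP2 run 35.9. Around genes named U2 it had 19.8 times, against 7.17 for INTS3 and 4.97 to 6.78 for the other NABP runs. At U11, the snRNA of the minor spliceosome (chr4:131825995-131826128), it had 104 sites per 100000, INTS3 35.3 and the other NABP runs 27.4 to 31.5. A run of INTS9 was raised around U2 as well (12.6 times, 9.36 to 16.6), and around U12, U7 and U6atac the smaller NABP2 run (8.48, 0.955 and 1.22 times) was close to INTS3 (8.55, 1.06 and 1.55 times). Around U2 and U11 INTS3 lay above the other 3 NABP runs, so the order of INTS3 and NABP2 there turned with the run used.

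A gene named U1 on chromosome 11 (chr11:87236369-87236532), inside an intron of Tex14 and near another called U1 copy, was the snRNA gene where INTS3 was lowest beside both libraries. It held 5 INTS3 sites, 18 NABP1 sites and 32 NABP2 sites, with folds of 0.278 (0.0806 to 0.776) and 0.156 (0.0475 to 0.404). Per 100000 sites INTS3 had 5.19, the NABP1 runs 31.4 and 14.2, the smaller NABP2 run 111 and the larger 20.6. INTS3 was below all 4. The sequence of this gene occurs 7 times without a mismatch in mm9, so a read wholly within it matches several places. It is printed in capitals after the 100 bases before it, and the second sequence is a stretch 2076 bases downstream of its start with 8 NABP1, 2 NABP2 and 0 INTS3 sites, in which capitals mark recorded junctions.
U1, chr11:87236269-87236532: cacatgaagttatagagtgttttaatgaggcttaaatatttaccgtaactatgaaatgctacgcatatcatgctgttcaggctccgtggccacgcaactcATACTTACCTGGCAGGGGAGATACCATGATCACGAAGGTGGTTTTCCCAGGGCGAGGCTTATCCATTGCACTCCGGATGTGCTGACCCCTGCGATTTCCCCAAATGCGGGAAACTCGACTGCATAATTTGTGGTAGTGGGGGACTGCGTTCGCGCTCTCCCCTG
U1, chr11:87238445-87238744: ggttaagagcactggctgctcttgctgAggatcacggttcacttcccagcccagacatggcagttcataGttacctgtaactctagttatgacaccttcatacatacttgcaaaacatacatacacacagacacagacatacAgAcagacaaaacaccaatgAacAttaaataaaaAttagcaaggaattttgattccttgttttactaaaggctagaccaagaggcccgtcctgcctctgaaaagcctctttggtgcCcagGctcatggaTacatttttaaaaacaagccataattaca

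Long nuclear RNAs held fewer INTS3 than NABP2 sites in sum, and 0 of the 2 genes were called in either direction. Over all tested genes 0.897% were called higher and 8.42% lower. Malat1 and Neat1, neighbours on chromosome 19 that make abundant nuclear RNAs, held together 96 INTS3, 113 NABP1 and 161 NABP2 sites, or 60.1, 70.8 and 100.9 times uniform density. The ratio of INTS3 was 0.850 to NABP1 (0.640 to 1.13) and 0.596 to NABP2 (0.458 to 0.772), with 0.642 against the larger NABP2 run (0.478 to 0.859), beside a median fold of 0.818 against NABP2 over all tested genes. Malat1 held 46, 60 and 80 sites, and per 100000 INTS3 had 50.9, the NABP1 runs 67.6 and 51.99 and the NABP2 runs 176 and 72.7. Neat1 held 50, 53 and 81. INTS3 was below all 4 NABP runs at both genes, but close to 1 NABP1 run at Malat1.

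Genes that mark fibroblasts held fewer INTS3 sites in sum than NABP2 sites, and none of them was called by the 2-fold rule. The 25 genes of this list, such as those of collagens and the actomyosin apparatus, held 169 INTS3, 209 NABP1 and 259 NABP2 sites (3.43, 4.24 and 5.25 times uniform density). INTS3 was at 0.809 of NABP1 (0.656 to 0.995), a ratio that ran from 0.710 to 0.896 over the other thinnings, and 0.653 of NABP2 (0.534 to 0.795). Its 3.47 times over all sites was below the 4 NABP runs (3.95 to 5.37). Of the 7 members with enough sites 0 were called in either direction, beside 0.897% higher and 8.42% lower of all tested genes. Their median folds were 0.647 and 0.571, beside 0.917 and 0.818 over all tested genes. Cald1, which encodes the actin-binding caldesmon, held 27, 44 and 64 sites, and INTS3 with 31.1 per 100000 was just under the smaller NABP1 run (32.6) and well under the others (63.3 to 72.7). Col5a1, a collagen gene, held 16, 25 and 46, and Sparc and Fbn1, of the extracellular matrix, held 14, 19 and 14, and 11, 17 and 14.

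Immediate early genes, ribosomal protein genes, hosts of small nucleolar RNAs and p53 targets had ratios whose intervals included 1. Immediate early genes, which respond within minutes to growth signals, had 18.4, 19.01 and 19.5 times uniform density, and none of the 9 with enough sites was called. Within the list the direction varied: Junb held 29, 23 and 21 sites, while Cyr61 held 12, 21 and 29 and Ier2 14, 25 and 19. Ribosomal protein genes had 8.32, 7.83 and 8.32 times, with 1 of 6 called higher (Rpl23a). The densest INTS3 stretch of the Rpl23a window lay in an exon of another gene, Tlcd1. Hosts of small nucleolar RNAs had 14.5, 15.9 and 17.1 times, and p53 targets and DNA damage genes, the response SOSS is known for, 5.16, 5.73 and 5.20 times. Among the latter Bax, which promotes cell death, held 21, 15 and 16 sites and Gadd45b 18, 17 and 29, and 0 of 3 with enough sites were called. Over all tested genes 0.897% were called higher and 8.42% lower, and these lists have too few tested members to set a share against that.

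The genes of Integrator and SOSS subunits themselves held 84, 68 and 67 sites, with ratios of 1.24 (0.887 to 1.73) and 1.25 (0.899 to 1.76). Cpsf3l was the 1 of these 14 genes with enough sites. Ints5 held 9, 9 and 11 sites and Ints3 itself 7, 6 and 10. 

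Olfactory receptor genes, which fibroblasts are not known to use, were poor in sites. They had 0.397 times uniform density in INTS3, 0.372 in NABP1 and 0.264 in NABP2. INTS3 held 1.5 times the share of NABP2 there (1.17 to 1.93), but the smaller runs of NABP1 and NABP2 had 0.399 and 0.380, close to the 0.386 of all INTS3 sites, and the low value was that of the larger NABP2 run (0.240). Neuronal genes had 0.735 times for INTS3 (0.525 to 1.001), 0.919 for NABP1 (0.682 to 1.21) and 0.791 for NABP2 (0.572 to 1.06), so that their intervals included uniform density. Markers of blood cells held 8, 7 and 8 sites, and those of hepatocytes 4, 3 and 1, too few to place.

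Neighbours gave the distances between the libraries as wholes. Of INTS3 sites 24.6% had a NABP1 site within 1 kb (24.4 to 24.9) and 24.7% a NABP2 site (24.4 to 24.9). These equal, within counting error, the 24.6% with another INTS3 site. Within 1 kb the NABP libraries lay closer to each other than to INTS3. Of NABP2 sites 31.5% had a NABP1 site there (31.2 to 31.8) and 28.3% an INTS3 site. Of NABP1 sites 28.5% had a NABP2 site (28.2 to 28.8) and 25.6% an INTS3 site. Within 5 kb this did not hold for NABP1, with 56.0% near INTS3 (55.7 to 56.3) and 55.1% near NABP2 (54.7 to 55.4). INTS3 had 0.782 of the NABP2 share near NABP1 and 0.866 of the NABP1 share near NABP2. NABP2 sites were the most crowded, with 34.2% near another NABP2 site, beside 27.9% of NABP1 sites near another NABP1 site. These ratios do not separate closeness from the crowding of each library. Sites of INTS9 lay near 19.7% of INTS3 sites, 21.7% of NABP1 sites and 23.2% of NABP2 sites. The ratios stayed below 1 on the NABP runs: with the smaller or larger NABP1 run in place of the library they were 0.804 and 0.764 near NABP1, and 0.912 and 0.834 near NABP2.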

How the data were processed

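The deposited values used here are genome positions of HIV junctions, with strand and read name, 1 table per fused protein, and they are neither counts nor normalized values, per the file headers. The header gives the position as the 0-based first genomic base after the viral end, and the build is mm9, per the submitters' processing notes. For the aligner and the read filters, the sources used here state nothing. A pair of numbers follows each read name, the first at least 2 in every library; their meaning is not stated, and they served in 1 alternative only. Sites were made distinct by chromosome, position and strand, and flow cells were read from the read names. Libraries hold 96318, 188432 and 88204 sites and were thinned to 88204 (seed 1).

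Gene features came from the mm9 annotation (22350 protein-coding genes). Windows were genes with 5 kb on each side, counted for 32044 genes that are not pseudogenes and kept at a mean of at least 10 sites. Shares have exact binomial, densities exact Poisson and ratios exact conditional binomial intervals, all at 95% and for counting error only. Where a count was 0, 0.5 was added to both sides of its fold. Named were the 6 genes with the most INTS3 sites, the 12 genes with the largest fold in each direction against the nearer NABP library, and up to 4 genes of each list, with 1 gene named where windows overlap. The libraries, gene lists and rules were chosen with earlier results of these data known. The calculation was checked on simulated data. Alternatives covered all sites, other thinnings, joined sites, runs, windows, minimum site numbers and folds. Python 3.11.15, numpy 2.4.6, pandas 2.3.3, SciPy 1.17.1, matplotlib 3.10.9 and pysam 0.24.0 were used.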

Additional observations from a re-analysis of the deposited data

How the results depend on the processing

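No paired analysis was possible because each protein had 1 library. INTS3 stayed below both NABP libraries inside genes, in gene bodies and from 1 to 5 kb downstream of starts, and above them within 5 kb of ends, under all alternatives run. With the smaller NABP1 run alone the ratios to NABP1 were 0.9074 within 1 kb of a start, 0.97486 from 1 to 5 kb downstream (its interval reached 1.0002), 0.95454 inside genes and 0.95116 in gene bodies, with 8 genes higher, 105 lower, and neighbour ratios of 0.80381 near NABP1 and 0.91156 near NABP2. With the larger NABP1 run alone they were 0.81727, 0.89484 and 0.90963 for the first 3 of these features, and 0.76399 and 0.83381 for neighbours, with 24 genes higher and 208 lower. These choices of runs were made after seeing the data. With the larger NABP2 run alone the ratios to NABP2 were 0.78065 from 1 to 5 kb downstream and 0.94203 at snRNA genes, 10 genes were higher and 140 lower, and the neighbour ratio near NABP1 was 0.76293. On the flow cell of INTS3 and NABP2 the ratios to NABP2 were 1.3482 within 1 kb of a start, 0.90913 from 1 to 5 kb downstream, 0.90735 inside genes, 0.85655 in gene bodies and 0.57832 at snRNA genes. Within 5 kb of a start the direction turned there, to 1.0681.

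Counts of genes moved most. From all sites 10 were higher and 108 lower, and at a mean of at least 20 sites 0 and 39. With no minimum there were 4175 and 2951, so that more were higher than lower, at 1.5-fold 89 and 385, at 3-fold 0 and 34, and with folds divided by their median, added after seeing the data, 34 and 97. Over the other thinnings 14 to 20 were higher and 132 to 167 lower. Joining sites within 5 bases, which also redraws the thinned sites, gave 12 higher and 153 lower, of which 5 and 98 were main calls. A first number of at least 4 gave 8 higher genes and a histone ratio to NABP1 of 1.3095. Windows with 1 kb on each side gave 9 higher genes, a histone ratio to NABP1 of 0.90206, snRNA ratios of 0.83643 to NABP1 and 0.63202 to NABP2, and turned Rpl23a to 0.66667. Neighbour ratios near NABP1 were 0.74585 within 200 bases and 0.86562 within 5 kb, and near NABP2 0.92968 within 5 kb. For these values a cause was not tested. With about 10 sites a gene, single genes are limited by depth, and 1 library per protein leaves the spread between cultures unknown.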
